A study of Homo sapiens with 18 samples.

Results

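The genes described here handle retinoids, the vitamin A derivatives from which cells make retinoic acid. They are 9 of the 37550 rows of a gene expression table, taken by symbol: STRA6, RDH10, ALDH1A2, DHRS3, CRABP1, CRABP2, CYP26A1, CYP26B1 and CYP26C1. All 9 symbols were found, each in 1 row. Retinol enters cells through carriers such as STRA6, is oxidised to retinaldehyde by RDH10 and then to retinoic acid by ALDH1A2, while DHRS3 turns retinaldehyde back into retinol. CRABP1 and CRABP2 bind retinoic acid inside the cell, and the CYP26 enzymes oxidise it for removal. Retinoic acid acts on nuclear receptors (RARA, RARB and RARG, paired with RXR proteins), is best known in the early nervous system for its part in forming the hindbrain and spinal cord, and raises several of its own breakdown genes.

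Messenger RNA was measured in 18 libraries of the wild-type H1 line of human pluripotent stem cells, with 2 biological replicates in each of 9 groups. They comprised cells before differentiation, at day 0 (hPSC), anterior (aNE) and posterior (pNE) neural ectoderm at day 2, and each of these carried to day 4 in a forebrain (aNE_T, pNE_T), midbrain (aNE_M, pNE_M) or hindbrain (aNE_H, pNE_H) medium. All differentiated cells had spent day 1 in one definitive ectoderm medium that held A8301, trametinib at 250 nM, C59 and LDN193189, which inhibit TGF-beta receptors, MEK, WNT secretion and BMP receptors. Both day-2 media held A8301 at 1 µM and LDN193189 at 100 nM, along with the survival compound thiazovivin. The aNE medium added C59 at 1 µM and no retinoid is listed for it, whereas the pNE medium added TTNPB, a synthetic agonist of the retinoic acid receptors, at 50 nM, together with FGF2 at 20 ng/mL and the WNT pathway inhibitor XAV939 at 1 µM. The forebrain medium began on day 3 with at least XAV939 at 1 µM, LDN193189 at 100 nM and FGF2 at 20 ng/mL, and the make-up of the other media was not used here. Cells for day 2 were plated at 37500 per cm2, and cells for day 4 at 75000 per cm2 (aNE) or 150000 per cm2 (pNE). Plating density therefore cannot be told apart from origin at day 4, or from day within either origin. C59, TTNPB, FGF2 and XAV939 differed together between the day-2 media, so their parts cannot be told apart either. A single cell line was used, and p-values measure only the spread between these libraries.

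CYP26A1 is shown first by sequence, because of the 8 genes that could be searched it is the one whose start region held a paired receptor motif. RDH10 had no start window and was not searched. Retinoic acid receptors bind a pair of 6-base motifs, and 4 forms (AGGTCA, next to it the variant AGTTCA, then also the variant GGGTCA and finally the variant GGTTCA) were searched on both strands of the windows that RefSeq gives from 250 bases before to 50 bases after each start site (GRCh38.p14). For 8 of the 9 genes 16 such windows were given. At least 1 motif lay in 8 of the 16 windows, against 38.6% of 34943 windows of all genes. A direct repeat of 2 such motifs 5 bases apart lay in 1 of the 16, that of the second CYP26A1 start site, against 0.0887% of all windows. Repeats with 1 or 2 bases between the motifs, found in 0.132% and 0.0372% of all windows, were in none of the 16. The CYP26A1 window covers chr10:93073643-93073942 on the plus strand, with both motifs in capitals. They lie 90 to 74 bases before the start site and are printed here as the complement of the opposite strand, on which they read AGTTCA.
CYP26A1 window: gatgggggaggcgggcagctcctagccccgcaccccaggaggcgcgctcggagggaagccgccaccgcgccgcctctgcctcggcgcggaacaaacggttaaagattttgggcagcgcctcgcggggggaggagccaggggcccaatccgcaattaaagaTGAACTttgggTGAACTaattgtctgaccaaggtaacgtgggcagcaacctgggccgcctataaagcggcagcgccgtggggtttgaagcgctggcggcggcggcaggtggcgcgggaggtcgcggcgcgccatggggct
The repeat itself (chr10:93073803-93073819, minus strand) is shown beside the repeat in the window of RARB (chr3:25428210-25428226, plus strand, 53 to 37 bases before the start), a receptor gene whose levels are given further on. RARB was the only other gene of the retinoid, receptor and response lists used here with such a repeat.
CYP26A1 repeat: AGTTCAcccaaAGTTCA
RARB repeat: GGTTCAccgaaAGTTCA
A match describes the letters of these windows and does not show that a receptor binds there.

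The deposited values are TPM, a relative transcript abundance with a fixed sum per library. They are scaled by transcript length, so that levels can be compared between genes. TPM does not keep the number of reads, so the depth is unknown and no counting error can be given for low values. Between 13686 and 14679 genes had at least 1 TPM in a library, replicates had Pearson's r of 0.982 to 0.987 across genes, and mitochondrial genes took 0.960% to 1.23% of TPM in hPSC and 1.53% to 3.74% elsewhere. Pluripotency markers summed to 5687 to 5742 TPM in hPSC, at least 741 TPM at day 2 and at most 274 TPM at day 4. All 6 neural ectoderm markers averaged at least 1 TPM in aNE, pNE, aNE_T and pNE_T, and 5 of 6 did in the midbrain and hindbrain groups, where PAX6 (pNE_M) or SOX1 (the others) averaged less. Their sum was 644 to 972 TPM at day 2, 1121 to 1551 TPM in the forebrain groups and 426 to 560 TPM in the midbrain and hindbrain groups. In such bulk samples fewer cells of a type and less RNA per cell cannot be told apart.

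Differences were tested with limma on log2(TPM + 1) for the 17033 genes that reached 1 TPM in 2 or more libraries, with Benjamini-Hochberg adjustment over all of them. A gene is called changed, or said to rise or fall, at an adjusted p under 0.05 and a log2 difference of at least 1 in size. Adding 1 understates the change of low genes. All 9 genes entered the test, CYP26B1, CYP26C1 and ALDH1A2 at low levels. CYP26C1 had at least 1 TPM in the 2 pNE libraries and no other, CYP26B1 had it in 5 libraries, all of pNE-derived cells, and ALDH1A2 never exceeded 2.86 TPM. CYP26C1 and CYP26B1 thus entered through the groups where they were high, so their differences from those groups are given as descriptions without p, and counts of called members are partly set by that entry.

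**Figure D1:**
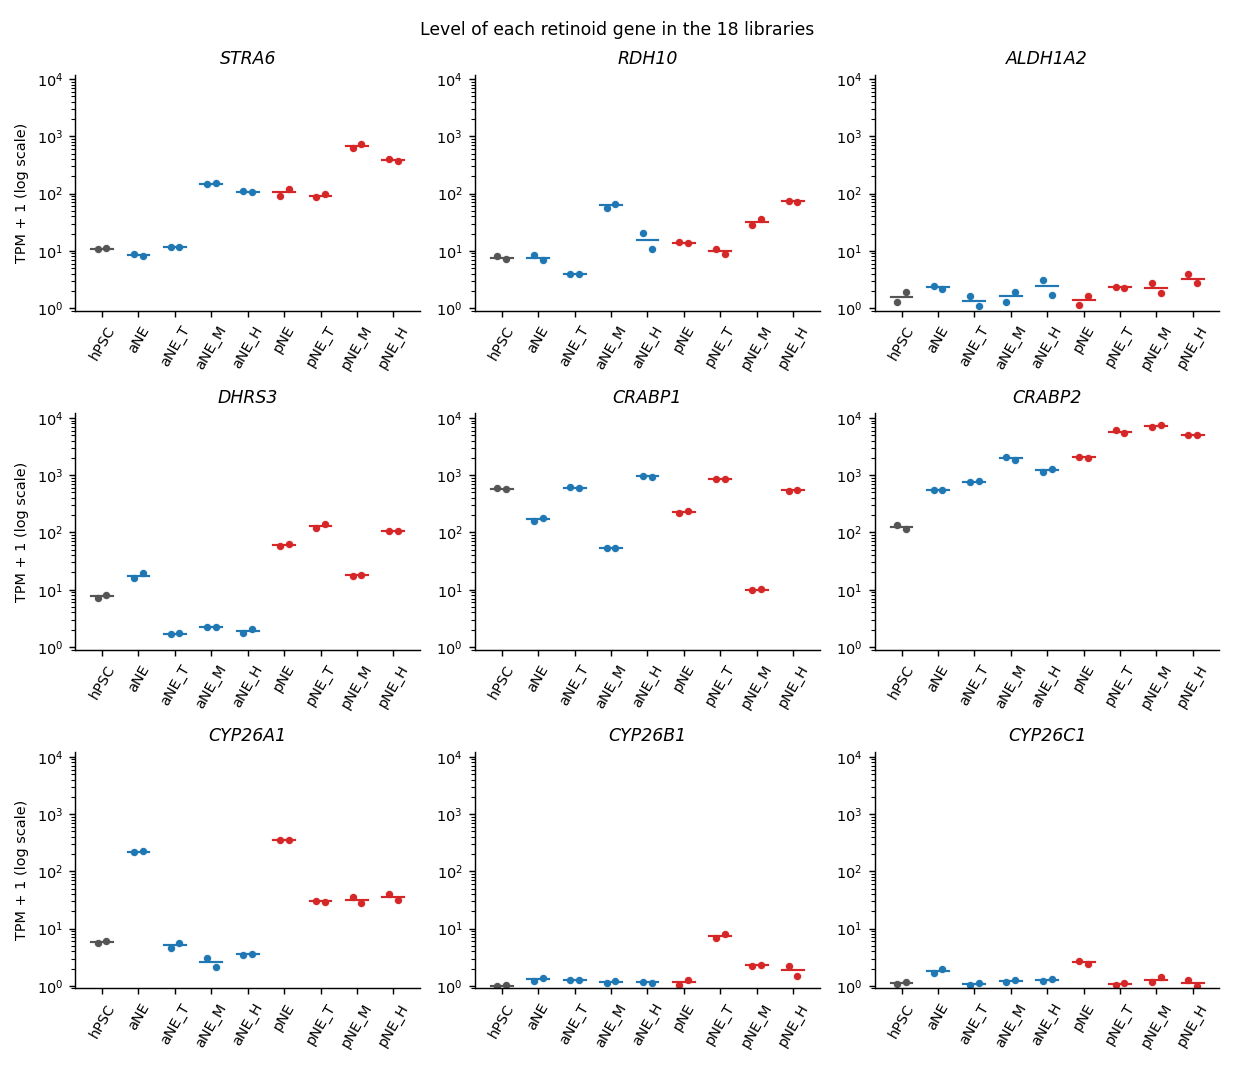
TPM + 1 on a log axis for each of the 9 genes in the 9 groups. Points are libraries (2 per group), bars are group means, and colour marks undifferentiated cells (grey), aNE and its derivatives (blue) and pNE and its derivatives (red). CRABP2 lies at or above 1982 TPM in all 8 libraries of pNE origin, CYP26A1 peaks in aNE and pNE, and ALDH1A2 stays at or below 2.86 TPM throughout.

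Against hPSC, 4 of the 9 genes were changed in aNE (3 higher, 1 lower), where 13.5% of all tested genes were changed, and 6 in pNE (5 higher, 1 lower), where 12.9% were. These comparisons share the hPSC libraries. Between the origins at day 2, 3 genes were higher in pNE and none lower, against 3.85% of tested genes changed. The median log2 difference of the 9 genes was 0.66, beside -0.01 for all tested genes. At day 4 the count was 6 higher and none lower in forebrain medium (7.77% of tested genes changed), 4 higher and 1 lower in midbrain medium (5.74%), and 5 higher and none lower in hindbrain medium (6.83%). The medians of the 9 were 2.56, 0.98 and 1.85, beside -0.05, -0.04 and -0.04 for all tested genes. STRA6, DHRS3 and CRABP2 were higher in pNE-derived cells at both days and in all 3 media, and CYP26A1 was so in all 3 media at day 4.

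**Figure D2:**
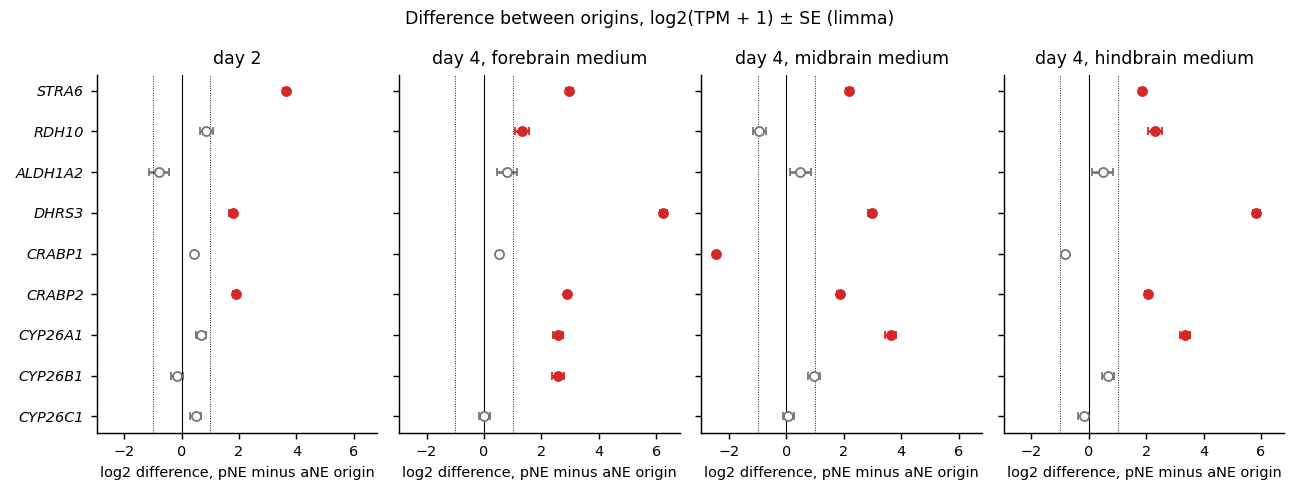
Log2 difference between pNE and aNE origin, on the log2(TPM + 1) scale with SE from limma, at day 2 and in the 3 media of day 4. Filled red points passed the test with a difference of at least 1 and open grey points did not. DHRS3 reached 6.25 in forebrain medium and 5.83 in hindbrain medium, and CRABP1 in midbrain medium was the 1 gene called lower, at -2.45.

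From day 2 to day 4, aNE-derived cells had 3 changed genes in forebrain medium (1 higher, 2 lower, 9.03% of tested genes changed), 6 in midbrain medium (3 higher, 3 lower, 12%) and 5 in hindbrain medium (3 higher, 2 lower, 10.1%). Cells of pNE origin had 6 changed genes in forebrain medium (4 higher, 2 lower, 10.2%), 7 in midbrain medium (3 higher, 4 lower, 12.7%) and 7 in hindbrain medium (5 higher, 2 lower, 12.3%). The change itself differed between the origins (the interaction of origin and day) for 4 genes in forebrain medium, all more positive in pNE-derived cells (7.14% of tested genes), for 6 in midbrain medium, 3 each way (7.02%), and for 5 in hindbrain medium, 3 more positive and 2 more negative (7.83%). Among the media, within aNE-derived cells, 4 genes differed between midbrain and forebrain medium (3 higher and 1 lower in midbrain, 10.1%), 2 between hindbrain and forebrain (both higher in hindbrain, 6.6%) and 2 between hindbrain and midbrain (1 each way, 4.92%). Within pNE-derived cells the counts were 5 (2 higher and 3 lower in midbrain than forebrain, 8.6%), 3 (2 higher and 1 lower in hindbrain than forebrain, 5.03%) and 3 (all higher in hindbrain than midbrain, 5.99%).

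STRA6 is the membrane receptor that takes up retinol from its carrier in blood, retinol binding protein 4. Its gene spans chr15:74179466-74212259 (GRCh38.p14) and overlaps CCDC33, which lay at up to 15.8 TPM in these libraries. Whether the counting used the strand is not stated, so reads of the shared stretch may not be told apart. STRA6 was at 9.77 and 10.1 TPM in hPSC and at 7.75 and 7.01 TPM in aNE. In pNE it was at 88.9 and 119 TPM. The pNE libraries were thus far above the others at day 2, with no overlap, and STRA6 rose by 3.64 ± 0.12 (log2, SE, limma adjusted p = 5.19e-10) against aNE and by 3.25 ± 0.12 (adjusted p = 4.03e-10) against hPSC.

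By day 4 STRA6 differed by origin and by medium. In forebrain medium it was at 10.7 and 10.8 TPM in aNE_T and at 85.5 and 96.1 TPM in pNE_T, and the changes from day 2, 0.49 and -0.18, were not called. In midbrain medium it reached 146 and 152 TPM in aNE_M and 635 and 738 TPM in pNE_M. In hindbrain medium it reached 109 and 105 TPM in aNE_H and 408 and 372 TPM in pNE_H. With each origin the midbrain and hindbrain groups were therefore above the forebrain group, and within each medium the pNE-derived libraries were the higher. Of the 6 neural ectoderm markers, 4 were lower in aNE_M and 4 in aNE_H than in aNE, beside 12% and 10.1% of all tested genes changed. Against pNE, 2 were lower in pNE_M, and in pNE_H 2 were lower and 1 was higher, beside 12.7% and 12.3%. The origin difference was 2.96 in forebrain, 2.20 in midbrain and 1.85 in hindbrain medium (SE 0.12, adjusted p at most 1.42e-07). From day 2, STRA6 rose more in aNE-derived cells than in pNE-derived cells, by 4.16 against 2.72 in midbrain medium and by 3.69 against 1.91 in hindbrain medium. These changes differed by -1.44 ± 0.17 (adjusted p = 6.39e-05) and -1.78 ± 0.17 (adjusted p = 9.69e-06). In the order of levels pNE_M came first, then pNE_H, aNE_M, and a set of aNE_H, pNE and pNE_T whose neighbours did not differ beyond their spread, and after these aNE_T, hPSC and aNE, of which aNE_T and hPSC did not differ.

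RDH10 carries out the first oxidation, from retinol to retinaldehyde, and had a different pattern. It lies at chr8:73294602-73325281, where it overlaps the antisense gene RDH10-AS1, for which the table has no row. RDH10 was at 6.99 and 6.29 TPM in hPSC, 7.35 and 5.94 TPM in aNE and 13.1 and 12.5 TPM in pNE. The day-2 difference between origins, 0.86 ± 0.23 (limma adjusted p = 0.0262), was below the size asked of a call. In forebrain medium the libraries held 2.88 and 2.92 TPM in aNE_T and 9.64 and 7.98 TPM in pNE_T, a difference of 1.33 (adjusted p = 0.001), and aNE_T was 0.97 below aNE, under the threshold (1.10 below without aNE replicate 2). In midbrain medium they held 56.0 and 66.0 TPM in aNE_M and 27.3 and 35.7 TPM in pNE_M, so that here the aNE-derived libraries were the higher. In hindbrain medium the order was the opposite, with 19.4 and 9.69 TPM in aNE_H and 73.3 and 71.0 TPM in pNE_H. The groups of the 2 origins did not overlap in any medium. The origin difference was 2.31 ± 0.23 (adjusted p = 9.45e-06) in hindbrain medium and -0.94 ± 0.23 (adjusted p = 0.0136) in midbrain medium, the latter under the size threshold with all libraries, -1.06 without aNE_M replicate 1 and -1.13 without pNE_M replicate 2.

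From day 2, RDH10 rose in midbrain medium by 3.02 where cells came from aNE and by 1.22 where they came from pNE, a difference between the changes of -1.80 ± 0.33 (adjusted p = 0.00236). In hindbrain medium it rose by 2.40 in pNE-derived cells and by 0.96, under the threshold, in aNE-derived cells, and the changes differed by 1.45 ± 0.33 (adjusted p = 0.00876). The pair of aNE_H libraries differed from each other by a larger ratio than the replicates of RDH10 in any other group. Without aNE_H replicate 2 the aNE-derived rise was 1.42 (adjusted p = 0.000125) and the difference between the changes was 0.98, and without aNE replicate 1 the rise was 1.09. Fitted to the compared libraries alone, the RDH10 calls that involve aNE_H lost significance: adjusted p = 0.0706 against pNE_H, 0.0639 against aNE_T, 0.119 against aNE_M and 0.0805 for the difference between changes. Within pNE-derived cells RDH10 was highest in hindbrain medium, 1.18 above midbrain (0.996 without pNE_M replicate 1) and 2.90 above forebrain. By level, pNE_H and aNE_M led without differing, pNE_M followed, and aNE_H, pNE, pNE_T, aNE and hPSC formed a run of neighbours that did not differ beyond their spread, with aNE_T lowest.

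ALDH1A2 makes retinoic acid from retinaldehyde and is the main enzyme of this step in the mesoderm next to the early neural tube. Its gene lies at chr15:57953429-58065711 and overlaps ALDH1A2-AS1, which has no row in the table. ALDH1A2 was low in every library, from 0.0684 TPM in an aNE_T library to 2.86 TPM in a pNE_H library. The highest group mean was 2.28 ± 0.82 TPM (SD, n = 2) in pNE_H, and no neighbours in the order of groups differed. In 20 of the 21 comparisons the gene was not changed. The exception was a rise of 1.27 ± 0.36 (limma adjusted p = 0.0134) from pNE, at 0.124 and 0.607 TPM, to pNE_H, at 2.86 and 1.70 TPM. This call was lost without pNE replicate 1 (1.01, adjusted p = 0.0976), without pNE_H replicate 1 (1.01, adjusted p = 0.104) and in a fit of the compared libraries alone (adjusted p = 0.0716). Differences of ALDH1A2 that were not called passed without 1 library for aNE_H against aNE_T (1.25 without aNE_H replicate 2) and for the difference between changes in hindbrain medium (1.70 without aNE_H replicate 1). The related enzymes ALDH1A1 and ALDH1A3 were also low, at up to 1.11 and 3.62 TPM in any library.

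DHRS3 reduces retinaldehyde back to retinol and had the largest difference between the origins of the 9 genes in forebrain and in hindbrain medium. It lies at chr1:12567910-12618210, with the small RNA genes MIR6730 and RNU6ATAC18P inside it. DHRS3 was at 6.04 and 7.19 TPM in hPSC, 15.1 and 18.3 TPM in aNE and 56.4 and 62.9 TPM in pNE. The 3 groups did not overlap, and DHRS3 rose in both day-2 populations, by 1.21 in aNE and 2.997 in pNE, with a difference of 1.78 ± 0.12 (limma adjusted p = 5.67e-07) between them. At day 4 it was at 0.695 and 0.720 TPM in aNE_T, 1.24 and 1.28 TPM in aNE_M, and 0.765 and 1.03 TPM in aNE_H, below hPSC in all 6 libraries. In pNE_T it was at 119.7 and 138 TPM, in pNE_M at 16.6 and 17.0 TPM and in pNE_H at 105.9 and 106.6 TPM. Every pNE-derived library was thus above every aNE-derived library. The mean in pNE_T was 182 times that in aNE_T, in pNE_H 119 times that in aNE_H and in pNE_M 13.4 times that in aNE_M, though the lower means rest on about 1 TPM.

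On the log2 scale these DHRS3 differences were 6.25 (adjusted p = 3.43e-12), 5.83 (adjusted p = 5e-12) and 2.98 (adjusted p = 2.75e-09), each with SE 0.12. From day 2 DHRS3 fell in aNE-derived cells, with changes of -3.37, -2.97 and -3.22 in forebrain, midbrain and hindbrain medium. In pNE-derived cells it rose by 1.10 ± 0.12 (adjusted p = 1.7e-05) in forebrain medium (0.995 without pNE_T replicate 2), fell by 1.77 in midbrain medium and was 0.82 higher, under the threshold, in hindbrain medium. The changes therefore differed between origins by 4.46, 1.197 and 4.04 (SE 0.17, adjusted p at most 0.000403). In the order of levels pNE_T and pNE_H, pNE_M and aNE, aNE_M and aNE_H, and aNE_H and aNE_T were neighbours that did not pass the test, while aNE_M was 0.40 above aNE_T (adjusted p = 0.023), under the size asked of a call.

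**Figure D3:**
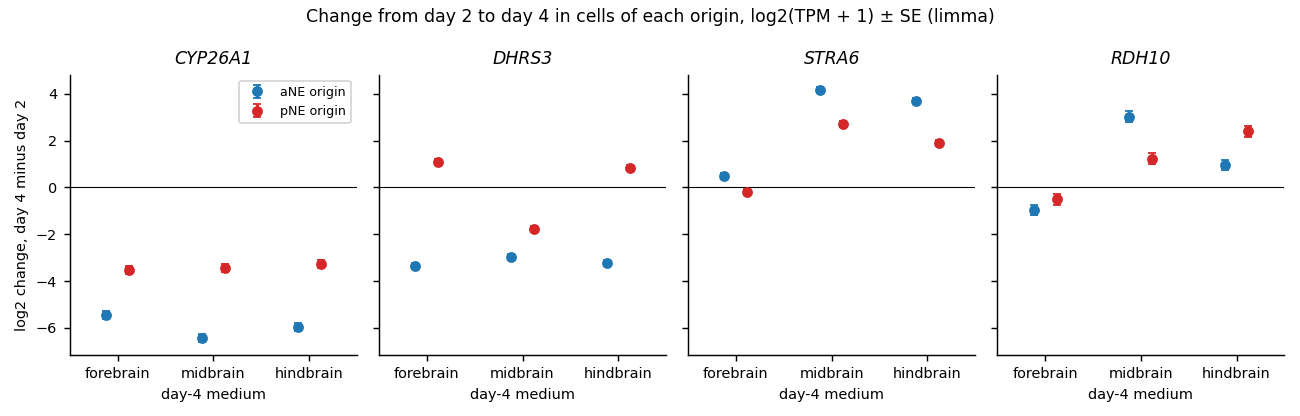
Change from day 2 to day 4 on the log2(TPM + 1) scale (SE from limma) in cells of aNE origin (blue) and pNE origin (red), in each day-4 medium, for 4 of the genes. CYP26A1 fell in all 6 groups, with changes of -5.45 to -6.42 in aNE-derived and -3.28 to -3.54 in pNE-derived cells, while DHRS3 fell in the 3 aNE-derived groups and in pNE_M.

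CRABP1 and CRABP2 are small cytosolic proteins of one family. CRABP2 is known to hand retinoic acid to its receptors, and CRABP1 is linked with its retention and breakdown in the cytosol. CRABP1 lies at chr15:78340353-78348225 and CRABP2 at chr1:156699606-156705784. In hPSC, CRABP1 was the more abundant, at 592 and 574 TPM, with CRABP2 at 133 and 112 TPM. In aNE, CRABP1 was at 159 and 177 TPM and CRABP2 at 555 and 540.4 TPM. In pNE, CRABP1 was at 216 and 236 TPM and CRABP2 at 2091 and 1982 TPM. CRABP1 thus fell on leaving the pluripotent state, by 1.79 in aNE and 1.37 in pNE, while CRABP2 rose by 2.16 and 4.05 (limma adjusted p at most 3.12e-09 for the 4 differences). CRABP2 was 1.89 ± 0.09 higher in pNE than in aNE (adjusted p = 2.29e-08), and CRABP1 was 0.42 ± 0.06 higher, under the threshold.

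At day 4 CRABP1 was lowest in midbrain medium. In forebrain medium it was at 613 and 595 TPM in aNE_T and at 864 and 872 TPM in pNE_T. In hindbrain medium it was at 983 and 946 TPM in aNE_H and at 533 and 559 TPM in pNE_H. In midbrain medium it was at 53.5 and 52.5 TPM in aNE_M and at 8.69 and 9.09 TPM in pNE_M. The midbrain libraries of both origins lay far below all others, with no overlap. The difference of midbrain from forebrain medium was -3.49 with aNE origin and -6.46 with pNE origin (SE 0.06), and the latter had the smallest adjusted p of any member in any comparison, 1.44e-15. CRABP1 rose from day 2 in forebrain medium by 1.84 in aNE-derived and 1.94 in pNE-derived cells, and these changes differed by 0.10 ± 0.09 (adjusted p = 0.597). In midbrain medium it fell by 1.64 and 4.52, a difference of -2.87 ± 0.09 (adjusted p = 8.45e-10), and in hindbrain medium it rose by 2.52 and 1.27, a difference of -1.24 ± 0.09 (adjusted p = 7.75e-07). In midbrain medium alone among the 4 origin comparisons was CRABP1 changed, at -2.45 ± 0.06 (adjusted p = 2.68e-11), and hindbrain medium gave -0.82, under the threshold.

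CRABP2 was higher in each group of pNE origin than in its aNE counterpart. It was at 748 and 776 TPM in aNE_T, 2107 and 1856 TPM in aNE_M, and 1158 and 1297 TPM in aNE_H. In pNE-derived cells pNE_T had 6064 and 5372 TPM, pNE_M had 6949 and 7519 TPM, and pNE_H had 5022 and 5105 TPM. Every pNE-derived library of day 4 was above every other library, and in pNE_M replicate 1 CRABP2 ranked 4th of the 37550 rows. The origin difference was 2.90 in forebrain, 1.87 in midbrain and 2.05 in hindbrain medium (SE 0.09, limma adjusted p at most 1.51e-08). The rise from day 2 was larger in pNE-derived than aNE-derived cells in forebrain medium, by 1.01 ± 0.13 (adjusted p = 0.000153). That difference lay just past the threshold and was 0.99 without aNE replicate 1, 0.98 without aNE_T replicate 1, 0.97 without pNE replicate 2 and 0.92 without pNE_T replicate 1. In midbrain and hindbrain medium the changes differed by -0.02 and 0.15 (adjusted p = 0.949 and 0.503). The order of CRABP2 levels ran pNE_M, pNE_T, pNE_H, pNE, aNE_M, aNE_H, aNE_T, aNE and hPSC, where pNE_T and pNE_H, and pNE and aNE_M, were neighbours that did not differ.

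The balance of the 2 binding proteins moved over a wide range. CRABP2 made up 17.3% ± 1.4 (SD, n = 2) of their summed TPM in hPSC, 76.5% ± 1.7 in aNE and 90.0% ± 0.90 in pNE. It made up 55.8% ± 1.2 in aNE_T and 56.0% ± 2.6 in aNE_H, but 97.4% ± 0.19 in aNE_M. In pNE-derived cells it made up 86.8% ± 1.1 in pNE_T, 90.3% ± 0.20 in pNE_H and 99.9% ± 0.0030 in pNE_M. CRABP2 was thus the lesser of the pair in hPSC and the greater in the 8 other groups. The ratio of CRABP2 to CRABP1 ran from 0.210 ± 0.021 in hPSC to 813 ± 20 in pNE_M. The sum of both was 706 ± 28 TPM in hPSC and 716 ± 1.8 TPM in aNE, and 7243 ± 403 TPM in pNE_M.

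**Figure D4:**
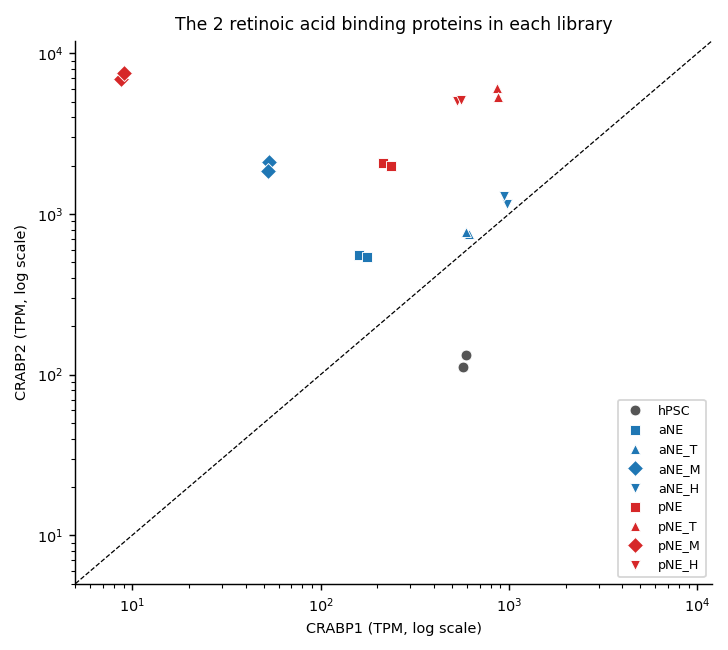
CRABP2 against CRABP1 in TPM, both axes logarithmic, 1 point per library, with a dashed line where the levels are equal. Both hPSC libraries lie below the line and the other 16 above it, with the midbrain libraries farthest from it at 52.5 and 53.5 TPM (aNE_M) and 8.69 and 9.09 TPM (pNE_M) of CRABP1.

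CYP26A1 is the main retinoic acid hydroxylase of the early embryo and a known direct target of the receptors. CYP26A1 lies at chr10:93073475-93077885, and CYP26C1 (chr10:93060798-93069540) ends 3934 bases before it. CYP26A1 was at 4.56 and 5.16 TPM in hPSC, 219 and 223 TPM in aNE and 352 and 348 TPM in pNE. It was therefore high in both day-2 populations, also in aNE, whose medium lists no retinoid. The rise was 5.24 ± 0.18 (limma adjusted p = 1.98e-10) in aNE and 5.91 ± 0.18 (adjusted p = 5.48e-11) in pNE against the same hPSC libraries. The groups of the 2 origins did not overlap, and their difference of 0.66 ± 0.18 (adjusted p = 0.0238) was under the size threshold.

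By day 4 CYP26A1 had fallen in every group, and further in cells of aNE origin. It was at 3.57 and 4.63 TPM in aNE_T, 2.11 and 1.15 TPM in aNE_M, and 2.49 and 2.62 TPM in aNE_H. The libraries of pNE_T had 29.8 and 28.7 TPM, those of pNE_M 35.3 and 27.1 TPM, and those of pNE_H 39.5 and 31.1 TPM. The aNE-derived libraries were back at or below the level of hPSC, and the pNE-derived ones lay between hPSC and day 2. The change from day 2 was -5.45, -6.42 and -5.96 with aNE origin and -3.54, -3.46 and -3.28 with pNE origin, in forebrain, midbrain and hindbrain medium. The changes differed by 1.91, 2.96 and 2.68 (SE 0.25, adjusted p at most 0.00016). The origin difference was 2.58, 3.63 and 3.34 (SE 0.18). The 3 pNE-derived groups did not differ from one another, with adjusted p from 0.384 to 0.803. In aNE-derived cells CYP26A1 was 0.97 lower in midbrain than in forebrain medium, under the threshold, and 1.12 lower without aNE_T replicate 1 and 1.24 lower without aNE_M replicate 1.

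CYP26B1, a retinoic acid hydroxylase known from the developing hindbrain and limb, was near 0 at day 2. It was at 0 and 0.0191 TPM in hPSC, 0.223 and 0.362 TPM in aNE and 0.0529 and 0.250 TPM in pNE. At day 4 it stayed between 0.126 and 0.287 TPM in the 6 aNE-derived libraries. In pNE_T it was at 5.93 and 7.17 TPM, in pNE_M at 1.26 and 1.30 TPM and in pNE_H at 1.26 and 0.485 TPM. The pNE_T libraries were above all others. In log2, CYP26B1 in pNE_T lay 2.71 ± 0.21 above pNE, 2.56 ± 0.21 above aNE_T, 1.72 above pNE_M and 2.04 above pNE_H. The last of these was not called in a fit of the compared libraries alone. The changes from day 2 in the 2 origins lay 2.73 ± 0.30 apart in forebrain medium. In midbrain medium the gap was 1.15 ± 0.30. Without aNE replicate 2, aNE_M replicate 1, pNE replicate 1, pNE_M replicate 1 or pNE_M replicate 2, it was 1.02 to 1.16 but not called. Some CYP26B1 differences just under the size threshold were larger in size without 1 library. The difference of pNE_M from aNE_M, 0.98, became 1.02 without aNE_M replicate 2. That of pNE_M from pNE, 0.99, became 1.12 without pNE replicate 2 and 1.00 without pNE_M replicate 1. The difference between changes in hindbrain medium, 0.84, became 1.14 without pNE_H replicate 2.

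CYP26C1, the third enzyme of the family, was highest at day 2, as was its neighbour CYP26A1, at much lower levels. It was at 0.0871 and 0.169 TPM in hPSC, 0.686 and 0.989 TPM in aNE and 1.71 and 1.45 TPM in pNE. The 12 day-4 libraries lay between 0 and 0.407 TPM, all below the 4 day-2 libraries. In log2, CYP26C1 lay 1.19 ± 0.19 above hPSC in pNE and 0.70 above it in aNE. Its differences from pNE at day 4 were -1.26 in forebrain, -1.004 in midbrain and -1.20 in hindbrain medium. The difference in midbrain medium was -0.93 without pNE replicate 1 and -0.87 without pNE_M replicate 1. No neighbours in the order of groups differed. The difference of CYP26C1 between the origins was 0.49 at day 2. It was 0.02, 0.07 and -0.18 in forebrain, midbrain and hindbrain medium.

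CYP26A1 made up nearly all of the summed TPM of the 3 enzymes at day 2, at 99.5% ± 0.13 (SD, n = 2) in aNE and 99.5% ± 0.0083 in pNE. In pNE_T CYP26B1 made up 18.3% ± 2.4 of it, against 3.98% ± 0.76 in pNE_M and 2.30% ± 1.1 in pNE_H. The sum was 222 ± 3.3 TPM in aNE and 352 ± 2.8 TPM in pNE. It was 35.9 ± 0.13, 32.8 ± 5.6 and 36.3 ± 6.7 TPM in the 3 pNE-derived groups and 4.43 ± 0.80, 2.01 ± 0.57 and 2.97 ± 0.11 TPM in the 3 aNE-derived groups.

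Of 31 other genes that bind, store or convert retinoids, 22 could be tested. Between the origins at day 2, 2 of the 22 were changed (beside 3.85% of all tested genes), both higher in pNE, among them LRAT, which esterifies retinol for storage, by 3.62. In forebrain medium 5 were higher and none lower in pNE-derived cells (beside 7.77% changed), among them LRAT (1.48), the carotenoid-cleaving BCO1 (2.94) and BCO2 (1.86), and FABP5 (1.52), which can carry retinoic acid. In midbrain medium 3 were higher and none lower (beside 5.74%), among them BCO1 (1.40) and BCO2 (1.37). In hindbrain medium 2 were higher, among them BCO2 (1.75), and TTR, part of the retinol carrier complex in blood, was lower (-1.02), beside 6.83% changed. BCO1, BCO2 and TTR were low, at up to 6.86, 6.89 and 2.65 TPM in any library. Outside cells of pNE origin BCO2 reached at most 1.04 TPM, in an aNE_H library, and at most 0.977 TPM in aNE. It thus entered the test through groups of pNE origin. Its differences are given as descriptions, and the counts that include it are partly set by that entry. Mean LRAT was higher with aNE origin in midbrain medium (18.4 against 11.6 TPM) and hindbrain medium (10.2 against 5.67 TPM). The median over the 22 genes was 0.09, 0.10, 0.00 and 0.01 in these 4 comparisons, beside -0.01, -0.05, -0.04 and -0.04 for all tested genes.

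Of the 6 receptor genes 5 could be tested, all but RXRG. At day 2 RARA (1.12) and RARB (3.31) were higher in pNE. At day 4 the same genes were higher in forebrain medium (RARA 1.68, RARB 5.66) and hindbrain medium (RARA 2.06, RARB 5.53), and in midbrain medium RARA (1.39), RARB (1.98) and RARG (1.64) were. RARB, itself a target of retinoic acid, averaged 20.7 ± 0.95 TPM in pNE, 81.5 ± 5.2 TPM in pNE_T, and, in pNE_M and pNE_H, 4.82 ± 0.48 and 61.2 ± 6.1 TPM. It was at most 1.28 TPM in any library of hPSC, aNE or aNE-derived cells. Within the pNE-derived groups mean RARB had the order of mean DHRS3, with pNE_T and pNE_H above pNE and pNE_M below it. For DHRS3 the difference of pNE_H from pNE, 0.82, was under the size threshold. CYP26A1, the other gene of these lists with a repeat in its window, was lower in all 3 than in pNE.

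A list of 14 genes known to respond to retinoic acid, which includes RARB, gave 9 changed genes between the origins at day 2, where 3.85% of all tested genes were changed. Of these 8 were higher in pNE, such as HOXB1 (4.19), MEIS2 (1.95) and NRIP1 (1.94), and NR2F2 was lower (-3.53). In forebrain medium 11 were higher and none lower, in midbrain medium 11 were higher and NR2F2 lower (-1.35), and in hindbrain medium 9 were higher and none lower, beside 7.77%, 5.74% and 6.83% of all tested genes changed. The median was 1.87 at day 2 and 4.41, 3.69 and 4.37 in the 3 media, beside -0.01, -0.05, -0.04 and -0.04 for all tested genes. Some of the 14 reached 1 TPM in only part of the libraries, such as HOXB1 in 8. The counts of this list may thus be partly set by how its genes entered the test. Against hPSC 10 of the 14 were changed in pNE (beside 12.9% of all tested genes) and 3 in aNE (beside 13.5%), the latter being MEIS2 (4.41), NR2F2 (5.06) and NRIP1 (1.02). In aNE, CYP26A1 was at 221 ± 2.9 TPM and RARB at 1.18 ± 0.14 TPM. From day 2 with aNE origin, 0, 1 and 2 of the 14 changed in forebrain, midbrain and hindbrain medium, near or under the 9.03%, 12% and 10.1% of all tested genes. With pNE origin 10, 11 and 10 did, beside 10.2%, 12.7% and 12.3%.

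Markers of other cell types moved with some of these results. Between the origins, 3.85%, 7.77%, 5.74% and 6.83% of all tested genes were changed at day 2 and in forebrain, midbrain and hindbrain medium. The counts of markers that differed with origin stand beside these shares. The 10 mesoderm markers summed to 5.07 to 5.13 TPM in aNE and 8.89 to 10.5 TPM in pNE, to 25.5 to 31.6, 33.1 to 35.4 and 40.7 to 43.5 TPM in pNE_T, pNE_M and pNE_H, and to 4.90 to 5.70, 21.3 to 25.4 and 4.96 to 5.19 TPM in aNE_T, aNE_M and aNE_H. Between 1 and 3 of the 5 tested were higher in pNE-derived cells in each medium and 1 in pNE at day 2. Of the 10, MEOX1, TCF15 and FOXC1 had the highest values in any library, 28.1, 20.2 and 19.6 TPM. TBXT was at 0 in aNE_H and pNE_H, and MEOX2 was at 0 in pNE_T. The 5 endoderm markers summed to at most 5.25 TPM except in pNE_T (9.46 to 12.6 TPM) and pNE_H (12.9 to 16.1 TPM). GATA4 and FOXA2 had the highest values in any library, 6.59 and 6.01 TPM, and SOX17 was at 0 in 6 groups. Of 4 tested endoderm markers 1, 2, 1 and 3 were higher with pNE origin at day 2 and in forebrain, midbrain and hindbrain medium. No endoderm marker averaged at least 1 TPM in hPSC, aNE or any aNE-derived group. The endoderm counts are therefore partly set by how these markers entered the test. Neural crest markers summed to 11.3 to 107 TPM, highest in hPSC, and of 5 tested 2 were lower with pNE origin at day 2 and 1 in forebrain medium, 3 were higher and 2 lower in midbrain medium, and 1 was higher and 1 lower in hindbrain medium. Of the 6 neural ectoderm markers 2, 2, 2 and 1 were lower and none higher with pNE origin at day 2 and in forebrain, midbrain and hindbrain medium. Against forebrain medium, 5 and 6 of the 6 were lower in midbrain and hindbrain medium with aNE origin, beside 10.1% and 6.6% of all tested genes changed. With pNE origin 4 and 6 were lower, beside 8.6% and 5.03%. Surface ectoderm markers summed to 580 to 1237 TPM in hPSC and at day 2 and in aNE_T, and up to 2113 TPM in pNE_M, mostly KRT8 and KRT18, with 1 or 2 of 4 tested higher with pNE origin in each comparison. The part of these cells in the differences of STRA6, RDH10, DHRS3, CRABP1, CRABP2 and CYP26A1 was not tested.

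Over the 18 libraries, STRA6 and CRABP2 had Pearson's r of 0.855 on the log2(TPM + 1) scale, STRA6 and RDH10 0.816, CYP26A1 and CYP26C1 0.744, and DHRS3 and CYP26A1 0.730. CRABP1 had r of -0.347 with CRABP2 and -0.445 with STRA6. These values describe 9 groups of 2 libraries that share media and day, and are given without a test. Of 12419 genes that reached 5 TPM in 2 or more libraries, the 3 most like each member by the same measure were ISLR (0.950), FDPS (0.944) and BTBD3 (0.944) for STRA6, and KHDRBS3 (0.946), USP51 (0.925) and DAP3 (0.897) for RDH10. They were FAM153A (0.782), NAP1L1 (0.739) and PDGFRA (0.737) for ALDH1A2, and PPP1R17 (0.947), RNF207 (0.945) and ITIH5 (0.942) for DHRS3. For CRABP1 they were SLC38A2 (0.869), TSPY26P (0.850) and TMEM200B (0.827), and for CRABP2 PLXNA2 (0.962), MEIS2 (0.953) and METRN (0.953). For CYP26A1 they were SCN4B (0.943), SURF2 (0.872) and PRR5 (0.864), for CYP26B1 CCDC85A (0.933), VSIR (0.910) and ZNF367 (0.904), and for CYP26C1 COL1A1 (0.916), MAT2A (0.910) and SURF2 (0.902). Of the 9, CRABP2 had the closest such gene and ALDH1A2 the least close. SURF2 was named for both CYP26A1 and CYP26C1, and like them it was highest in pNE, at a mean of 116 TPM, then aNE, at 93.3 TPM. Like RDH10, KHDRBS3 was higher with aNE origin in midbrain medium and lower in hindbrain medium, with 146 TPM in aNE_M against 84.2 TPM in pNE_M and 55.0 TPM in aNE_H against 98.2 TPM in pNE_H.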

How the data were processed

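Poly-A RNA of 18 H1 libraries was sequenced by a service provider, per the labels' protocols. The authors deposited 1 table of gene-level TPM values (relative transcript abundance) with 1 column per library. The submitters' processing notes name bcl2fastq, FastQC, Trim Galore, kallisto and deepTools and the build hg38, without versions or settings, and the annotation is not given in the sources used here. Libraries were grouped by their titles. From the TPM table, limma 3.58.1 in R 4.3.3 was fitted to log2(TPM + 1) with 1 mean per group over all 18 libraries (9 residual degrees of freedom) and variances moderated with a trend. The fit gave 18 comparisons of groups and 3 interactions, two-sided, and it was tested on simulated data. Alternatives were a pseudocount of 0.1, quantile normalization, median-ratio scaling, no filter on low values or one at 5 TPM, the compared libraries alone, a replicate block, and each library left out. Samples with the same replicate number did not deviate together, so the numbers were not taken as pairs.

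The 9 genes and the lists (other retinoid handling, receptors, retinoic acid response, and markers of pluripotent, neural ectoderm, mesoderm, endoderm, neural crest and surface ectoderm cells) were chosen with earlier results of these data known. Genes named are the 9 in every comparison, list genes changed between origins (examples in the response list), and for each of the 9 the 3 genes with the highest r over libraries. Some list genes are not reported here by name and stay in the counts. SURF2, KHDRBS3 and the value of RARB in aNE were singled out after their values were seen. Start windows and positions are RefSeq's on GRCh38.p14, matched by symbol for 8 and 9 of the genes.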

Additional observations from a re-analysis of the deposited data

Results flagged for a closer look

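For 15 of the 27 tests of whether a gene changed differently from day 2 to day 4 in the 2 origins, the difference between the changes (pNE-derived minus aNE-derived, log2) passed the limma test with a size of at least 1, beside 7.14%, 7.02% and 7.83% of all tested genes in forebrain, midbrain and hindbrain medium. In each, origin and plating density cannot be told apart. In forebrain medium these were DHRS3 at 4.46 (adjusted p = 4.64e-09), CYP26B1 at 2.73, CYP26A1 at 1.91 (adjusted p = 0.00016) and CRABP2 at 1.01 (adjusted p = 0.000153). In midbrain medium they were CYP26A1 at 2.96 (adjusted p = 3.34e-06), DHRS3 at 1.197 (adjusted p = 0.000403), CYP26B1 at 1.15, STRA6 at -1.44 (adjusted p = 6.39e-05), RDH10 at -1.80 (adjusted p = 0.00236) and CRABP1 at -2.87 (adjusted p = 8.45e-10). In hindbrain medium they were DHRS3 at 4.04 (adjusted p = 1.15e-08), CYP26A1 at 2.68 (adjusted p = 8.2e-06), RDH10 at 1.45 (adjusted p = 0.00876), CRABP1 at -1.24 (adjusted p = 7.75e-07) and STRA6 at -1.78 (adjusted p = 9.69e-06). CYP26A1 and DHRS3 were the genes that passed in all 3 media. RDH10 passed in opposite directions in midbrain and hindbrain medium. The 15 include CYP26B1 in forebrain and midbrain medium, so the count is partly set by how that gene entered the test. CYP26B1 entered through pNE-derived groups alone and is therefore given without p. Its value in midbrain medium was not called without aNE replicate 2, aNE_M replicate 1, pNE replicate 1, pNE_M replicate 1 or pNE_M replicate 2. The size in those fits was 1.02 to 1.16. CRABP2 in forebrain medium was 0.99, 0.98, 0.97 and 0.92 without aNE replicate 1, aNE_T replicate 1, pNE replicate 2 and pNE_T replicate 1. RDH10 in hindbrain medium was 0.98 without aNE_H replicate 2 and had adjusted p = 0.0805 in a limma fit of the compared libraries alone.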

How the results depend on the processing

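The count of members changed from aNE to aNE_T was 5 with a pseudocount of 0.1 in place of 3. In a fit of the compared libraries alone, the count between aNE_H and aNE_T was 1 in place of 2, and that between aNE_H and aNE_M was 1 in place of 2, the gene lost being RDH10 in both. For single genes, 1244 of 1281 results under the 7 settings that keep every library had the same direction and call, 10 lost the call, 17 gained it, and in 10 an uncalled difference changed sign. With 1 library left out, 812 of 864 were the same, 16 lost the call, 13 gained it and 23 uncalled differences changed sign. No called difference reversed. The pseudocount of 0.1 added 11 of the calls, for CYP26B1, CYP26C1, RDH10 and CYP26A1. CYP26C1 lost the call in pNE_M against pNE under median-ratio scaling (-0.97) and quantile normalization (-0.85), and in pNE against hPSC under quantile normalization (0.99). CRABP2 lost its difference between changes in forebrain medium under quantile normalization (0.95). With the replicate block, 189 of 189 results were unchanged in call and the number of changed genes was 0.989 to 1.01 times that without it. Deviations of same-numbered libraries had r of -0.090 to 0.076 over 36 pairs of groups. At 5 TPM, ALDH1A2 and CYP26C1 were not tested. Levels near or under 1 TPM carry an unknown counting error.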
